A study of Mus musculus with 40 samples.

Results

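Mt1, Mt2, Mt3 and Mt4 are the mouse metallothionein genes, and they were taken by gene symbol as 4 of the 23228 genes measured in every RNA library of the series. The family was chosen by a measured value: Mt4 was among the 10 genes with the largest increases in untreated mutant cells once short RNA genes were set aside. The comparison of the genotypes without treatment is therefore given below as a description with no test. The cells were mouse embryonic stem cells of a C57BL/6 (mixed) background, in 4 groups of 2 libraries each. They were GLP 3A cells, homozygous for a mutation of the histone methyltransferase GLP, given all-trans retinoic acid (RA) at 1 uM; untreated GLP 3A cells; wild-type (WT) cells given RA in the same way; and untreated WT cells. All 4 groups had been moved from feeder cells to feeder-free 2i medium, and LIF, the factor that keeps stem cells undifferentiated, was withdrawn when RA was added. Effects of RA and of LIF withdrawal cannot be told apart here, and how long RA was given is not stated in the labels.

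Metallothioneins are small proteins rich in cysteine that bind zinc, copper and cadmium. Mt1 and Mt2 are made in most tissues and are switched on by zinc through the transcription factor MTF-1, which binds metal response elements (MREs) in their promoters, and also by glucocorticoids and oxidative stress. Mt3 is known mainly from neurons and astrocytes, and Mt4 from stratified squamous epithelium. In stem cells leaving the undifferentiated state, metallothionein RNA is one measure of how cells handle zinc.

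The values are RPKM, in which reads are divided by gene length and by library size, so levels of different genes can be compared per length. From the step that 1 read makes in intronless olfactory receptor genes, the depth relative to untreated WT replicate 1 was estimated at 0.87 to 1.25 for the replicate 1 libraries and 0.42 to 0.61 for the replicate 2 libraries, and 1 read on 1 kb was worth 0.0461 to 0.136 RPKM. Replicate number and depth therefore go together in every group, and each replicate number is given alone beside the pooled values. Ehmt1, which encodes GLP, was at 13.0 and 13.9 RPKM in GLP 3A with RA, 14.1 and 14.3 RPKM in untreated GLP 3A, 24.4 and 23.5 RPKM in WT with RA, and 18.4 and 17.6 RPKM in untreated WT. A level cannot show which allele a library carries, but the Ehmt1 levels of the genotypes did not overlap under either condition. Alb, which encodes serum albumin of liver and yolk sac, stood between 177 and 520 RPKM in the 4 replicate 2 libraries and between 1.06 and 5.64 RPKM in the 4 replicate 1 libraries, and its part in the results below was not tested. Nothing in the labels says that replicates were separate cultures, so p-values measure the spread between these libraries, which may be technical. These are bulk samples, in which fewer cells of a type and less RNA per cell cannot be told apart.

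The 4 genes lie in tandem on the plus strand of chromosome 8, over 43.1 kb. In the build of the files, mm9, Mt4 spans 96661104 to 96662931, Mt3 96676507 to 96678048, Mt2 96696518 to 96697467 and Mt1 96702989 to 96704227. Mt2 and Mt1, the pair found in most tissues, are 5.5 kb apart, whereas Mt4 and Mt3 are 13.6 kb apart and Mt3 and Mt2 18.5 kb apart. The 250 bases before each annotated start are shown with their matches to the core of the MRE, the element that MTF-1 binds. They hold 1 match for Mt4, 0 for Mt3, 3 for Mt2 and 1 for Mt1. Further matches of Mt1, Mt2 and Mt3 lie after the start. The sequences are RefSeq's for GRCm38.p6, plus strand, at chr8:94136954-94137203 for Mt4, chr8:94152357-94152606 for Mt3, chr8:94172368-94172617 for Mt2 and chr8:94178839-94179088 for Mt1. Capitals mark matches to the MRE core, searched as TGCACNC and TGCGCNC on both strands.
Mt4: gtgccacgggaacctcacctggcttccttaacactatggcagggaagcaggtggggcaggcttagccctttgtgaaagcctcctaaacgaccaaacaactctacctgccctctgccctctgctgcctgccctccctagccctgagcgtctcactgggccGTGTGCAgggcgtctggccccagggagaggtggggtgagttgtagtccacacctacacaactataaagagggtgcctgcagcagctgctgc
Mt3: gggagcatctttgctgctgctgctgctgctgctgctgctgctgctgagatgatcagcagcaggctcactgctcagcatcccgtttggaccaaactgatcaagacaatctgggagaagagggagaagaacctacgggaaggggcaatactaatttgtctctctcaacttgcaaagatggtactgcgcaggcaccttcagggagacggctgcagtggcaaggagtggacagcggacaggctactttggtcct
Mt2: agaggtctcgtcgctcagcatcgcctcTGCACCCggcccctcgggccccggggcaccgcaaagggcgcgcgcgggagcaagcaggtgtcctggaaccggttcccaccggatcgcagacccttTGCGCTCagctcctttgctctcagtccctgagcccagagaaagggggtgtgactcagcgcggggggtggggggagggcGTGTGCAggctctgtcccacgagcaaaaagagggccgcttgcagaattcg
Mt1: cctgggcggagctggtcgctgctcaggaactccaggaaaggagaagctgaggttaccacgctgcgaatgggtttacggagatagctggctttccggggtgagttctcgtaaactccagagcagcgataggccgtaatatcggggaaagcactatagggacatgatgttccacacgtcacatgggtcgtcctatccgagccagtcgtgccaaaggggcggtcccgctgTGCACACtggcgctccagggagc
The search also covered the first 50 bases of each gene, 300 bases in all, with position 1 at the annotated start. Mt2 held 4 matches, at -223, -128 and -50 before the start and at 5 after it. Mt1 held 3, at -23, 3 and 21. Mt4 held 1, at -91, and Mt3 held 1, at 28 and so outside the letters printed. Of 32841 RefSeq promoter windows of the same length, 25.7% held at least 1 match, 1.97% at least 3 and 0.518% at least 4. Within these 300 bases Mt4 alone of the members held a TATAAA box (at -30, searched on both strands), which 13.6% of all windows held. Letters beyond them were not searched, so the members may hold other boxes and matches there. Within the same 300 bases Mt2 alone held a match to TGACNNNGC, the core bound by the oxidative stress factor NRF2. It lay at -79, and 12.4% of all windows held such a match. The windows hang on the annotated starts. These counts therefore do not show that any member lacks a box or match near the start it uses. A match is a description of the letters and not a bound site.

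Mt1 and Mt2 carried nearly all metallothionein RNA, 98.51% to 99.57% of the family's summed RPKM in each library. Mt1 was at 907 and 593 RPKM in GLP 3A cells with RA, at 3724 and 3715 RPKM in untreated GLP 3A cells, at 236 and 160 RPKM in WT cells with RA and at 1373 and 1673 RPKM in untreated WT cells. Mt2 was at 609 and 359 RPKM in GLP 3A with RA, 2456 and 2670 RPKM in untreated GLP 3A, 114 and 68.9 RPKM in WT with RA and 936 and 981 RPKM in untreated WT. For both genes no 2 groups overlapped, and the order by mean was untreated GLP 3A, untreated WT, GLP 3A with RA and WT with RA. Lack of overlap between groups of 2 is only a description here and below, since its share over all genes was not counted. In untreated GLP 3A cells Mt1 ranked 23 and 21 among all genes by RPKM, against 109 and 82 in untreated WT cells; with RA it ranked 87 and 129 in GLP 3A cells and 331 and 525 in WT cells.

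**Figure D1:**
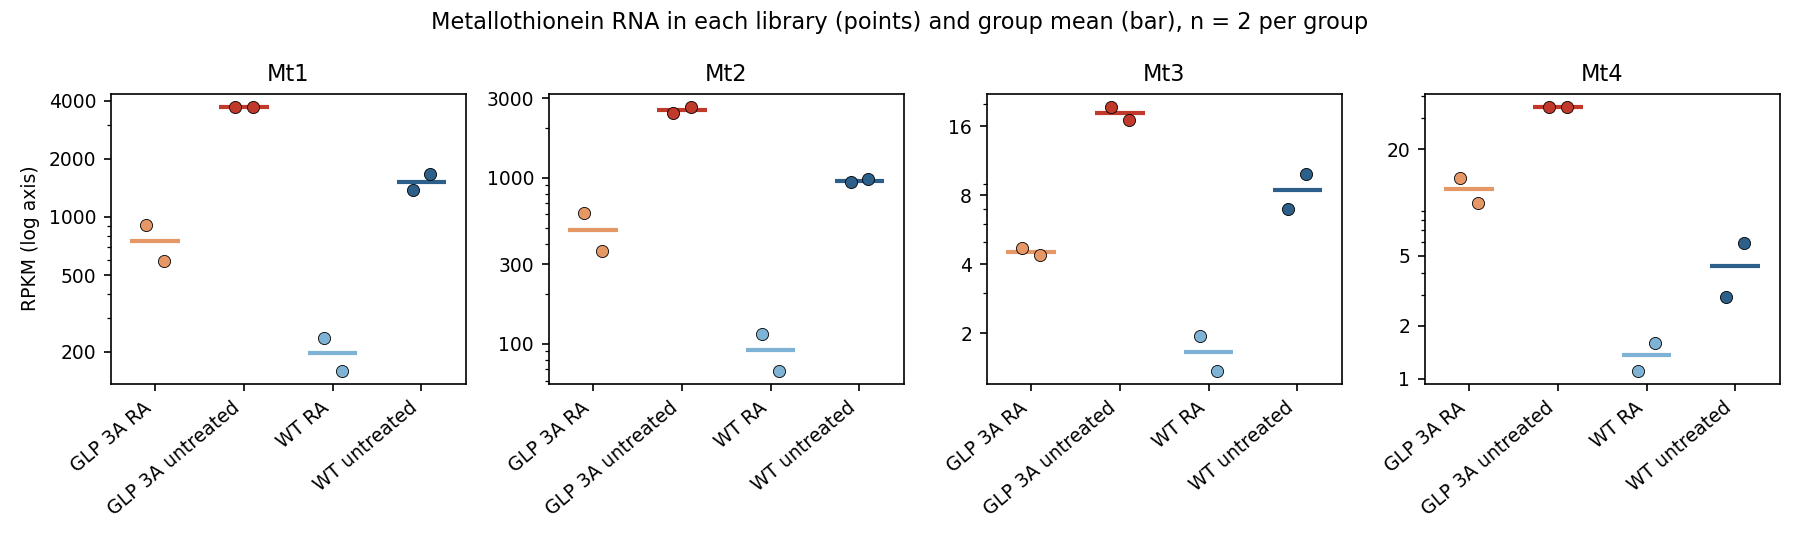
RPKM (log axis) of Mt1, Mt2, Mt3 and Mt4 in each library; points are libraries, left to right replicate 1 and 2, and bars are means of 2. For each gene the 2 untreated GLP 3A libraries are the highest and the 2 WT libraries with RA the lowest; Mt4 is the one gene with GLP 3A with RA (13.8 and 10.0 RPKM) above untreated WT (2.89 and 5.86 RPKM).

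Mt3 and Mt4, the members known from brain and squamous epithelium, were far lower per length. Mt3 was at 4.69 and 4.39 RPKM in GLP 3A with RA, 19.5 and 17.0 RPKM in untreated GLP 3A, 1.94 and 1.37 RPKM in WT with RA, and 6.98 and 9.94 RPKM in untreated WT. Mt3 thus had the same order of groups as Mt1 and Mt2, again with no overlap. Mt4 was at 13.8 and 10.0 RPKM in GLP 3A with RA, 35.0 and 34.7 RPKM in untreated GLP 3A, 1.11 and 1.6 RPKM in WT with RA, and 2.89 and 5.86 RPKM in untreated WT. Mt4 had another order: both GLP 3A groups lay above both WT groups, without overlap. These low values rest on few reads in WT cells with RA, at most 43 and 31 reads for Mt4 and at most 64 and 22 for Mt3, estimated from the genes' full spans, so there the counting error alone is large.

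The proportions among the 4 genes also differed between libraries. Mt4 exceeded Mt3 per length in all 4 GLP 3A libraries, by 2.95 and 2.28 times with RA and by 1.8 and 2.04 times untreated. In WT cells the ratio of Mt4 to Mt3 was 0.572 and 1.17 with RA and 0.413 and 0.589 untreated. Mt1 exceeded Mt2 in every library, by 1.49 and 1.65 times in GLP 3A with RA, 1.52 and 1.39 times in untreated GLP 3A, 2.07 and 2.32 times in WT with RA and 1.47 and 1.7 times in untreated WT. The ratio of Mt1 to Mt2 was thus highest in the WT libraries with RA, where both genes were lowest. The family's sum was 1534 and 966 RPKM in GLP 3A with RA, 6234 and 6437 RPKM in untreated GLP 3A, 353 and 232 RPKM in WT with RA and 2319 and 2671 RPKM in untreated WT, which made up 0.0417% to 0.833% of all RPKM in a library.

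In untreated cells all 4 genes were higher in GLP 3A than in WT, Mt4 by the widest margin. Mt4 averaged 34.85 ± 0.275 RPKM in untreated GLP 3A cells and 4.37 ± 2.1 RPKM in untreated WT cells (SD, n = 2 each), a ratio of means of 7.97. The means of Mt1 were 3720 ± 6.68 RPKM in untreated GLP 3A and 1523 ± 212 RPKM in untreated WT, a ratio of 2.44. The ratio of means was 2.67 for Mt2 and 2.15 for Mt3. On the log2(RPKM + 1) scale, used for all differences here, the differences were 1.29 ± 0.26 for Mt1, 1.42 ± 0.31 for Mt2, 1.04 ± 0.18 for Mt3 and 2.80 ± 0.28 for Mt4 (SE). Replicate 1 alone gave 1.44, 1.39, 1.36 and 3.21 for Mt1 to Mt4, and replicate 2 alone gave 1.15, 1.44, 0.71 and 2.38. From the highest of the 13010 tested genes that are not short RNAs, Mt4 ranked 10, Mt2 79, Mt1 110 and Mt3 198. Over all 13198 genes tested, 7.52% were called higher in untreated GLP 3A cells and 4.15% lower (limma's Benjamini-Hochberg adjusted p under 0.05). These shares are given only as the background of the comparison that chose the family. Of all genes called in it 64.4% were higher, and 54.1% with median-of-ratios scaling or 53.3% with quantile normalization.

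The RA-treated libraries did not enter the comparison that brought the family forward, and there the genotypes were compared with a test. The spread in that test also comes from the untreated libraries, which brought Mt4 forward, so the test is not independent of that choice. With RA, all 4 metallothioneins were higher in GLP 3A than in WT cells. Mt1 averaged 750.1 ± 222 RPKM in GLP 3A with RA and 198 ± 53.7 RPKM in WT with RA (SD, n = 2 each, as in the next sentences), 3.79 times as much. Mt2 averaged 484 ± 177 RPKM in GLP 3A with RA and 91.5 ± 32.0 RPKM in WT with RA, 5.29 times as much. Mt3, at 4.54 ± 0.215 RPKM in GLP 3A with RA and 1.65 ± 0.404 RPKM in WT with RA, was 2.75 times as high, and Mt4, at 11.9 ± 2.70 RPKM in GLP 3A with RA and 1.35 ± 0.347 RPKM in WT with RA, 8.81 times as high. By the same threshold 4 of 4 members were called higher, where 5.3% of all tested genes were. The log2 differences were 1.91 ± 0.26 for Mt1 (adjusted p = 0.0143), 2.39 ± 0.31 for Mt2 (adjusted p = 0.0126), 1.07 ± 0.18 for Mt3 (adjusted p = 0.0226) and 2.45 ± 0.28 for Mt4 (adjusted p = 0.00955), by limma's two-sided moderated test. Within replicate 1 they were 1.94, 2.40, 0.95 and 2.81, and within replicate 2 they were 1.89, 2.37, 1.19 and 2.08, in the same order of genes. By size Mt4 ranked 13 and Mt2 16 from the highest of the 13010 genes, with Mt1 at 36 and Mt3 at 186.

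These calls rest on the spread shared by all 8 libraries. Fitted on the 4 RA libraries alone, 15 genes in all were called, against 1401, and 0 of the 4 members were, with limma's adjusted p of 0.176, 0.174, 0.167 and 0.092 for Mt1 to Mt4, while 4 of 4 had an unadjusted p under 0.05. Mt2 and Mt4 kept the call when any 1 of the 8 libraries was left out, at adjusted p up to 0.0476 and 0.0495. Mt1 lost it without WT with RA replicate 2 (difference 1.63, limma's adjusted p = 0.0552). Mt3 lost it in 5 of 8 such fits: without untreated GLP 3A replicate 1 or 2, GLP 3A with RA replicate 1, or WT with RA replicate 1 or 2 (limma's adjusted p of 0.0557 to 0.0864).

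**Figure D2:**
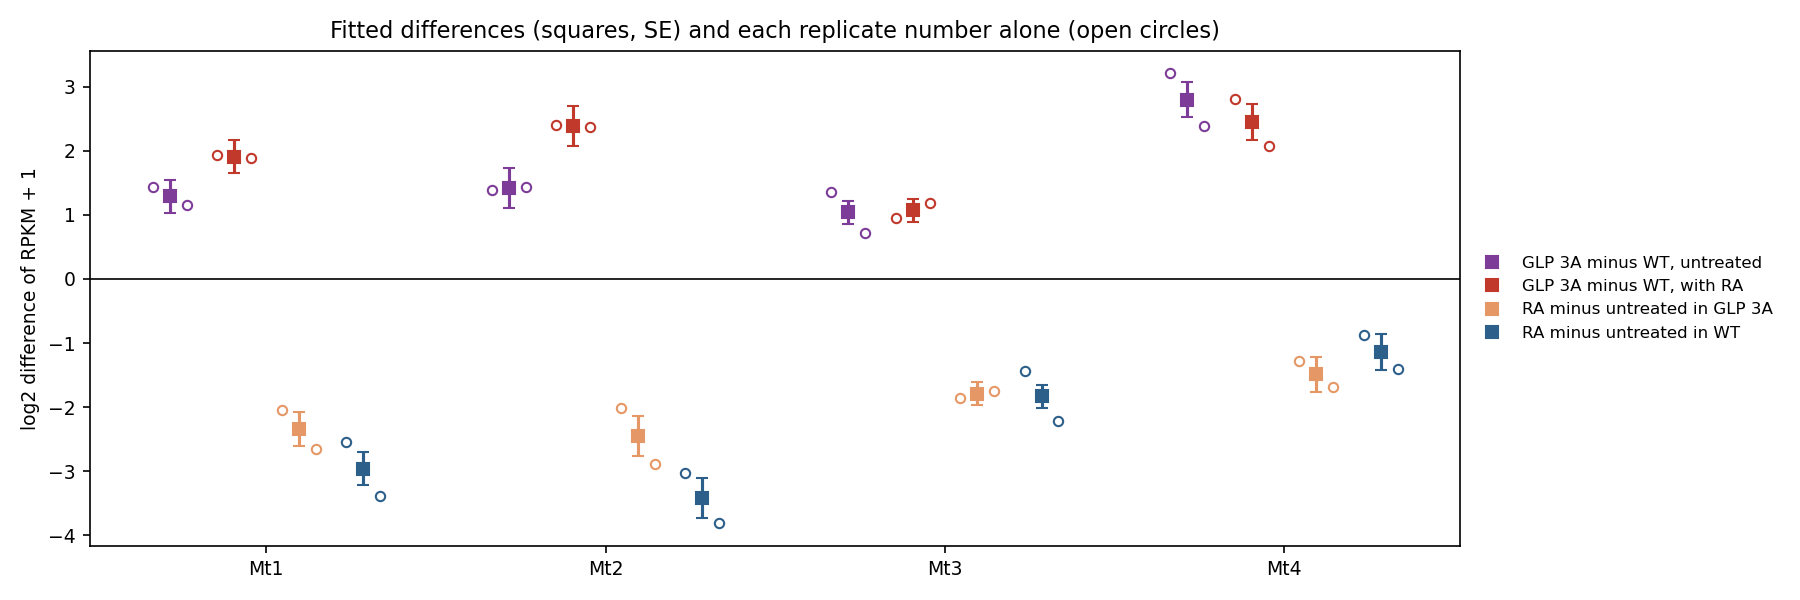
Differences of log2(RPKM + 1) for each member in the comparisons of groups (squares, bars 1 SE) and within each replicate number (open circles, replicate 1 left of replicate 2). Every genotype difference lies above 0, between 0.71 and 3.21 within single replicate numbers, and every RA difference lies below 0, between -3.81 and -0.88.

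Mt1, Mt2 and Mt3 fell with RA in both genotypes. In GLP 3A cells the mean of Mt1 was 4.96 times lower with RA than untreated, that of Mt2 5.30 times and that of Mt3 4.01 times. In WT cells the mean with RA was 7.70 times lower for Mt1, 10.5 times for Mt2 and 5.12 times for Mt3. RA changed most genes: 70.4% of those tested were called in GLP 3A, 32.3% higher and 38.1% lower, and 68.5% in WT, 33.7% higher and 34.8% lower. All 3 members tested were among those called lower in both genotypes, a direction they share with many genes. In GLP 3A the log2 differences of RA from untreated were -2.34 ± 0.26 for Mt1 (limma's adjusted p = 0.000324), -2.45 ± 0.31 for Mt2 (adjusted p = 0.000551) and -1.79 ± 0.18 for Mt3 (adjusted p = 0.000221). In WT they were -2.96 ± 0.26 for Mt1 (limma's adjusted p = 0.000135), -3.42 ± 0.31 for Mt2 (adjusted p = 0.000149) and -1.83 ± 0.18 for Mt3 (adjusted p = 0.000216). These comparisons share the untreated libraries that brought Mt4 forward, so Mt4 is given without a test: its log2 difference was -1.49 ± 0.28 in GLP 3A and -1.14 ± 0.28 in WT, a 2.92-fold and a 3.23-fold lower mean with RA.

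Replicate 2 alone gave a larger RA difference than replicate 1 alone for 3 of the 4 genes in GLP 3A and for all 4 in WT. For Mt2 in WT it was -3.81 in replicate 2 and -3.02 in replicate 1, and for Mt2 in GLP 3A -2.89 in replicate 2 and -2.01 in replicate 1. Of the RA libraries, replicate 2 also had the lower sum of 10 stem cell markers, 395.4 and 183.2 RPKM in GLP 3A and 264.8 and 146.1 RPKM in WT. Pou5f1, which encodes the pluripotency factor OCT4, was at 27.7 and 10.7 RPKM in GLP 3A with RA and at 14.5 and 2.20 RPKM in WT with RA. Sox2 was higher in replicate 2, at 21.4 and 35.4 RPKM in GLP 3A with RA and 38.3 and 47.2 RPKM in WT with RA. The stem cell markers did not share 1 order of these 4 libraries. By Pou5f1 GLP 3A replicate 2 lay below WT replicate 1, whereas by Mt1 it lay above. Nanog, at 13.1 and 6.3 RPKM in GLP 3A with RA and 1.51 and 0.814 RPKM in WT with RA, had the order of Mt1. So did Esrrb, at 4.92 and 1.68 RPKM in GLP 3A with RA and 1.0 and 0.341 RPKM in WT with RA. Sox2 had the reverse order. The part of remaining stem cells in the metallothionein values was not tested.

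Whether RA lowered the genes more in one genotype was tested as the difference of the RA responses, GLP 3A minus WT, in which 1.8% of all tested genes were called, 0.561% higher and 1.24% lower. Of the 3 members tested 0 were called, and 0 had an unadjusted p under 0.05 in limma. The difference was 0.62 ± 0.36 for Mt1 (95% interval -0.26 to 1.50, limma's adjusted p = 0.391), 0.97 ± 0.43 for Mt2 (-0.08 to 2.02, adjusted p = 0.27) and 0.04 ± 0.25 for Mt3 (-0.58 to 0.65, adjusted p = 0.957). For Mt4 it was -0.35 ± 0.40, given without a test. Within replicates 1 and 2 the difference was 0.50 and 0.73 for Mt1, 1.01 and 0.92 for Mt2, -0.40 and 0.47 for Mt3 and -0.40 and -0.30 for Mt4. The intervals leave room for a difference of over 2-fold for Mt1 and Mt2 in 1 direction, so a like response of the genotypes is not shown.

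The genes around the cluster that are reported here differed less between genotypes than any member did. They are 15 genes within 500 kb of it, of which 11 were tested. With RA limma called 0 of the 11 between genotypes, 0 at an unadjusted p under 0.05, and their log2 differences ran from -0.19 to 0.19. Of all tested genes 10.6% were called with RA and 11.7% untreated, so 0 of 11 is near the share of all genes. The fit on the 4 untreated libraries alone called 3450 of 13198 genes. In untreated cells their differences ran from -0.47 for Pllp, which encodes a myelin membrane protein, to 0.52 for Herpud1, which acts in the breakdown of misfolded proteins; 4 of the 11 (Pllp, Bbs2, Herpud1 and Arl2bp) had an unadjusted p under 0.05 in limma, and Pllp was called in the fit on the 4 untreated libraries alone (adjusted p = 0.0157). The nearest neighbour on the Mt4 side, the ciliary gene Bbs2, 38.4 kb away, differed by 0.17 with RA and 0.20 untreated, and the nuclear pore gene Nup93, 34.3 kb from Mt1, by 0.10 with RA and -0.03 untreated; neither was called. Over the 692 tested genes of chromosome 8 outside the family the median genotype difference was -0.01 with RA and 0.06 untreated. RA moved these neighbours both ways, with 4 higher and 5 lower of 11 in GLP 3A and 5 higher and 5 lower in WT, from Pllp (-1.31 in GLP 3A, -1.90 in WT) to Cpne2, for a calcium-dependent membrane-binding protein (2.31 in GLP 3A, 2.24 in WT). Shares over all tested genes were 32.3% higher and 38.1% lower in GLP 3A, and 33.7% higher and 34.8% lower in WT.

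**Figure D3:**
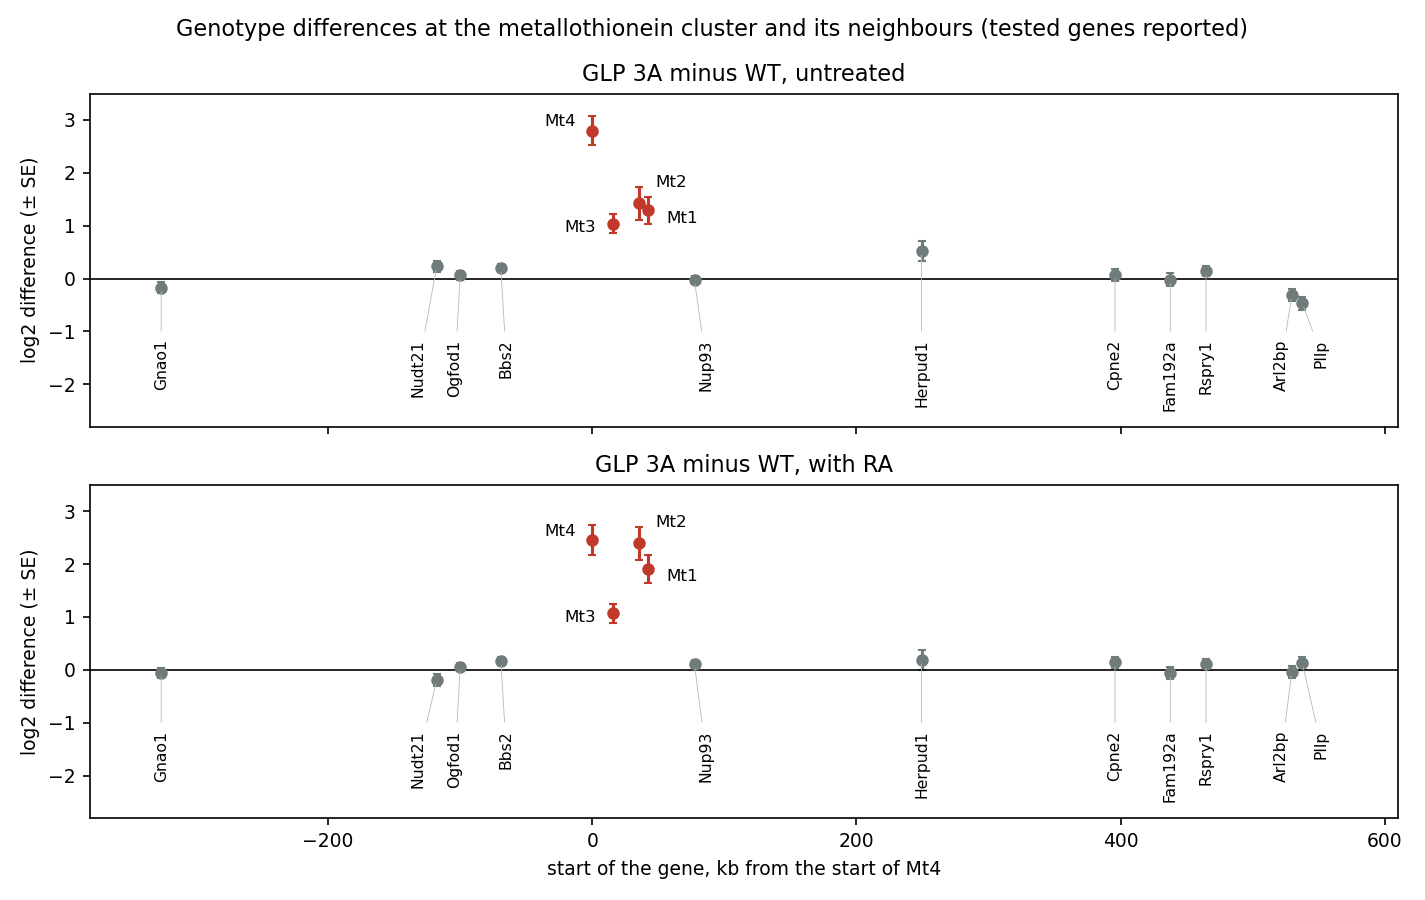
Difference of log2(RPKM + 1), GLP 3A minus WT (SE bars), against the distance of each gene's start from that of Mt4 in kb, for the members (red) and the 11 tested neighbours reported (grey). The 4 members lie between 1.04 and 2.80, above these 11 neighbours, which lie between -0.47 and 0.52 untreated and between -0.19 and 0.19 with RA.

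Of the metal response genes outside the family, Mtf1 itself and 8 genes tied to it, limma called 0 between genotypes with RA and 0 untreated, and 1 under each condition had an unadjusted p under 0.05. Of all tested genes 10.6% were called with RA and 11.7% untreated, so 0 of 9 is near the share of all genes. In the fit on the 4 untreated libraries alone, given below, 3450 of 13198 genes were called. The median differences of the 9 were 0.13 with RA and 0.08 untreated, against -0.01 and 0.04 for all genes tested. With 1 library left out 0 to 2 were called with RA and 0 to 1 untreated, and the fit on the 4 untreated libraries alone called 2, Slc30a1 and Ndrg1. Mtf1 was at 3.54 and 2.75 RPKM in GLP 3A with RA and 2.72 and 2.80 RPKM in WT with RA, and its groups overlapped (0.13 ± 0.12, limma's adjusted p = 0.486). Slc30a1 encodes ZnT1, the exporter that takes zinc out of the cell and a known MTF-1 target. Slc30a1 was at 4.78 and 3.58 RPKM in GLP 3A with RA and 3.12 and 3.63 RPKM in WT with RA (0.24 ± 0.13, limma's adjusted p = 0.276). In untreated cells, where Mt1 and Mt2 were higher in GLP 3A, Slc30a1 was at 9.34 and 9.43 RPKM in GLP 3A and at 13.3 and 12.3 RPKM in WT, not called over all 8 libraries (-0.41, limma's adjusted p = 0.0956) but called lower in the fit on the 4 untreated libraries alone (adjusted p = 0.0216).

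With RA against untreated, Slc30a1 fell, as Mt1 and Mt2 did (-1.01 in GLP 3A, limma's adjusted p = 0.0006; -1.66 in WT, limma's adjusted p = 8.65e-05). In all 1 of the 9 metal response genes rose and 4 fell in each genotype; of all tested genes 32.3% rose and 38.1% fell in GLP 3A, and 33.7% rose and 34.8% fell in WT. Csrp1, which encodes a LIM domain protein, rose by 2.94 in GLP 3A and 2.69 in WT, while Gclc, for the catalytic part of the enzyme that starts glutathione synthesis, differed by -0.91 and -0.89 and the kinase gene Plk3 by -1.13 and -1.08, both called. Mtf1 fell in WT (-0.35, limma's adjusted p = 0.0325, lost in 6 of 8 fits with 1 library left out) and was not called in GLP 3A (-0.30, limma's adjusted p = 0.0561). The difference of these 2 responses was not called.

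Zinc transporters, the proteins that carry zinc across membranes, include genes that were higher in GLP 3A cells. Their largest difference with RA, that of Slc39a4, was 1.51 ± 0.41 and was not called (limma's adjusted p = 0.0689). The fit on the 4 untreated libraries alone called 9 of 20, and 3450 of 13198 genes. In that fit Slc30a1 was lower in GLP 3A and the others called were higher. With RA, 4 of 20 tested were called higher and 0 lower in GLP 3A, where 5.3% of all genes were higher, and untreated 3 were higher and 0 lower, where 7.52% were; the medians were 0.23 and 0.17, against -0.01 and 0.04 for all genes. Slc39a11, which encodes the transporter ZIP11, differed by 0.84 ± 0.08 with RA (limma's adjusted p = 0.00554), a call kept in 8 of 8 fits with 1 library left out and lost in the fit on the 4 RA libraries alone (adjusted p = 0.15), where 0 of 20 were called. The other 3 with RA were Slc39a2 (0.64), Slc30a2 (0.64) and Slc39a1 (0.48), called at adjusted p of 0.0308, 0.0398 and 0.0367. Each of these 3 lost its call in at least 7 of the 8 fits, where 1 to 5 transporters in all were called with RA and 0 to 6 untreated. With RA 1 was called without any 1 of the 4 untreated libraries, GLP 3A with RA replicate 1 or WT with RA replicate 2, and untreated 0 were called without replicate 2 of untreated GLP 3A or of untreated WT. RA moved transporters both ways: 11 rose and 5 fell of 20 in GLP 3A, and 9 rose and 5 fell in WT. Slc39a8, for a zinc and manganese importer, rose by 1.30 in GLP 3A and 1.51 in WT, and Slc30a2, for a transporter that moves zinc into vesicles, fell (-1.51 in GLP 3A, -1.81 in WT).

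Genes of the oxidative stress response, which share inducers with Mt1 and Mt2, mostly fell with RA. Of 21 tested, 17 fell and 1 rose in GLP 3A and 17 fell and 0 rose in WT, with medians of -1.01 and -1.05 against -0.07 and -0.03 for all genes. Of all tested genes 38.1% fell and 32.3% rose in GLP 3A, and 34.8% fell and 33.7% rose in WT. Nqo1, for a quinone reductase and target of NRF2, fell (-2.45 in GLP 3A, -2.51 in WT), as did Hmox1, for heme oxygenase (-1.46 in GLP 3A, -1.36 in WT), and Sod2, for the mitochondrial superoxide dismutase (-2.55 in GLP 3A, -2.44 in WT). Nfe2l2, which encodes NRF2, fell too (-0.47 in GLP 3A, -0.85 in WT). Between genotypes with RA 3 of 21 were higher in GLP 3A and 1 was lower: Srxn1, for sulfiredoxin (0.70, limma's adjusted p = 0.0182), Nqo1 (0.62, adjusted p = 0.0259) and Cat, for catalase (0.37, adjusted p = 0.0495), against Prdx6, for a peroxiredoxin (-0.74, adjusted p = 0.00563). Prdx6 kept its call in 8 of 8 fits with 1 library left out, and Srxn1, Nqo1 and Cat lost theirs in at least 6 of 8. In the fit on the 4 RA libraries alone limma called 0 of the 21, 5 of them at an unadjusted p under 0.05, and Prdx6 had an adjusted p of 0.147. In untreated cells 5 of 21 were higher in GLP 3A and 0 lower, led by Gsr, Nqo1, Hmox1 and Cat, and 0 to 7 were called with 1 library left out, 0 without any 1 of the 4 untreated libraries. Between genotypes, 5.3% of all tested genes were called higher and 5.31% lower in GLP 3A with RA, and 7.52% higher and 4.15% lower untreated. The fit on the 4 untreated libraries alone called 9 of the 21, all higher in GLP 3A, and 3450 of 13198 genes. Hmox1, Nqo1 and Gsr lie on chromosome 8 as the family does, outside the window of neighbours described above.

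**Figure D4:**
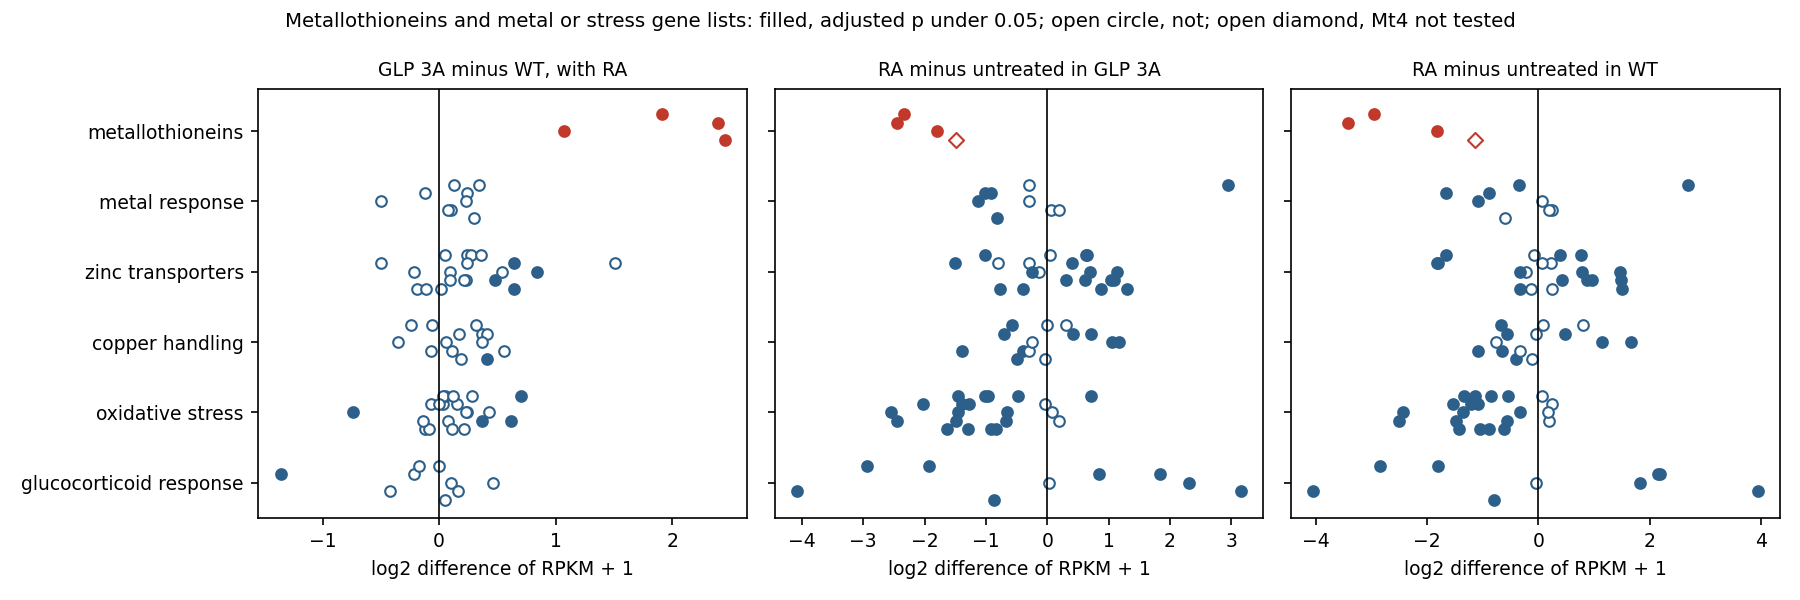
Differences of log2(RPKM + 1) of the members (red) and of the tested genes of 5 lists (blue) in 3 comparisons; filled symbols are called, open circles are not, and the open diamond is Mt4 where it was not tested. With RA the 4 members lie between 1.07 and 2.45, where 1 of the other listed genes, a zinc transporter that is not called, lies above 1; in the RA comparisons most oxidative stress genes lie below 0, and the zinc transporters on both sides.

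Markers of cell types known for metallothioneins were set beside the family. The summed RPKM of 10 stem cell markers was 395.4 and 183.2 in GLP 3A with RA, 4746.1 and 4663.4 in untreated GLP 3A, 264.8 and 146.1 in WT with RA and 5550.8 and 5660.1 in untreated WT, so the labelled cell type had its markers before RA. All 10 fell with RA in each genotype, where 38.1% of all tested genes fell in GLP 3A and 34.8% in WT. With RA 2 of the 10, Nanog (2.25) and Tdgf1 (1.80), were called higher in GLP 3A, and untreated Zfp42 was called lower (-2.20). The fit on the 4 untreated libraries alone called 6 of the 10, and 3450 of 13198 genes. In that fit Nanog and Tdgf1 were higher and Zfp42, Esrrb, Klf4 and Dppa5a lower. Over all 8 libraries 10.6% of tested genes were called between genotypes with RA and 11.7% untreated. Markers of squamous epithelium, where Mt4 is best known, summed to 11.0 and 7.8 RPKM in GLP 3A with RA, 3.6 and 2.7 RPKM in untreated GLP 3A, 6.0 and 6.8 RPKM in WT with RA and 2.6 and 2.2 RPKM in untreated WT. Of the 12 squamous markers 4 (Krt5, Ivl, Sprr1a and Dsg3) were at 0 in untreated GLP 3A replicate 2. With RA 1 of 4 tested, Sprr1a, was higher in GLP 3A (1.08, limma's adjusted p = 0.021). Of the 10 neural and astrocyte markers in the files 4 were tested, and limma called 0 between genotypes with RA (2 at an unadjusted p under 0.05) and 2, Nes and Tubb3, higher in untreated GLP 3A; their sum was 58.2 and 65.6 RPKM in GLP 3A with RA, 52.1 and 51.9 RPKM in untreated GLP 3A, 53.2 and 72.0 RPKM in WT with RA and 34.4 and 33.8 RPKM in untreated WT.

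Fibroblast markers, which feeder cells would bring, summed to 103.9 and 145.0 RPKM in GLP 3A with RA, 6.5 and 8.0 RPKM in untreated GLP 3A, 123.6 and 130.7 RPKM in WT with RA and 5.8 and 6.1 RPKM in untreated WT, with Lum and Fap at 0 in all untreated libraries. The fibroblast sum was thus lower in every untreated library than in any library with RA. Of 10 tested, Col1a1 and Col6a1 were higher and Pdgfra was lower in GLP 3A with RA. Untreated, limma called 0 of these fibroblast markers, with 1 at an unadjusted p under 0.05. The fit on the 4 untreated libraries alone called 3, Col1a1 (0.25), Col5a1 (0.30) and Pdgfrb (-0.44). Over all tested genes 10.6% were called with RA, 11.7% untreated and 3450 of 13198 in the fit on those 4 libraries. Markers of visceral endoderm and liver, another tissue of high Mt1 and Mt2, summed to 258.8 and 1042.3 RPKM in GLP 3A with RA, 1055.7 and 1644.3 RPKM in untreated GLP 3A, 262.3 and 434.7 RPKM in WT with RA and 1160.4 and 1698.0 RPKM in untreated WT, and limma called 0 of 11 tested between genotypes under either condition, with 2 at an unadjusted p under 0.05 with RA and 0 untreated. Apoe made up most of the sum of these markers in every untreated library, at 1041 and 1019 RPKM in GLP 3A and 1148 and 1343 RPKM in WT. It fell with RA (-2.08 in GLP 3A, -2.87 in WT), while Dab2 rose (3.22 in GLP 3A, 4.49 in WT). Of these 12 markers 7 (Alb, Apoa1, Apoa4, Apob, Rbp4, Trf and Ttr) were higher in all 4 replicate 2 libraries than in all 4 replicate 1 libraries, with SEs of 1.05 to 3.63 on the difference with RA. The SEs of these 7 include their split by replicate number, which the fit did not model. The list's median difference with RA was 0.61, against -0.01 for all genes. The part of other cell types in the metallothionein values was not tested.

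Across the 8 libraries, the genes most like each member by Pearson's r of log2(RPKM + 1) were found among 11879 genes outside the family. These libraries share 4 groups and a depth difference, so r describes likeness and carries no p. Mt1 and Mt2 were each other's nearest gene (r = 0.998), and r was 0.99 between Mt1 and Mt3 and 0.98 between Mt2 and Mt3. Mt4 stood farther off, at r of 0.824 with Mt1, 0.828 with Mt2 and 0.829 with Mt3. Outside the family Mt1 was most like Mageb16, Gnb2l1 and Slc35f2 (r of 0.993, 0.991 and 0.991), Mt2 most like Myst2, Tm4sf5 and Nol11 (0.993, 0.992 and 0.991), and Mt3 most like D7Ertd715e, Prkab1 and Gnb2l1 (0.993, 0.992 and 0.989). Mt4 was most like Ubb, a ubiquitin gene, with r of 0.985, Rnmtl1 with 0.981 and Htatip2 with 0.98. Htatip2 was at 5.90 and 5.50 RPKM in GLP 3A with RA, 12.3 and 12.9 RPKM in untreated GLP 3A, 2.43 and 2.30 RPKM in WT with RA and 3.89 and 4.94 RPKM in untreated WT, the same order of groups as Mt4.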

How the data were processed

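RNA of mouse embryonic stem cells was sequenced single-end after Trizol extraction and DNase treatment, per the labels' protocols. Per the file headers, the authors deposited RPKM values by symbol with each gene's locus, and no read counts. Reads were mapped to mm9 according to the submitters' processing notes, which list Cufflinks, TopHat, SAMtools and Bowtie 0.12.7 without their roles. Strand handling, and how reads in overlapping genes were shared, is not stated there. The 32 other samples of the series are not analysed here. Starts in the files count from 0 and are given here from 1.

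Of 23240 symbols, 12 not in all 8 files were left out. Group differences on the log2(RPKM + 1) scale came from limma 3.58.1 (R 4.3.3), fitted to 4 group means over the 8 libraries with an intensity trend and two-sided tests. Genes reaching 1 RPKM in 2 or more libraries entered, 13198 in all, and all 4 members passed. P-values were adjusted by Benjamini-Hochberg over all genes tested in each of 5 comparisons, and standard errors are the moderated ones. A fold on this scale understates the change of low genes. Depth was estimated from olfactory receptor genes spanning 880 to 1100 bases, taking the lowest cluster of values above 0 as 1 read; intervals for reads are not given.

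The members and the gene lists were chosen with earlier results of these data known. Genes were named by rule: the members, the genes within 500 kb, except 1 tested gene that is not reported here and is left out of the counts of neighbours, up to 4 called genes of each list and comparison with the largest difference and a known regulator or target, and the 3 genes most like each member; Alb, Ehmt1, Pou5f1 and the marker genes printed are named beside it, and not every gene that meets it is printed. The lists share Gclc and Txnrd1 (metal response and oxidative stress), Sod1 (copper and oxidative stress), and Slc30a1 and Slc39a10 (metal response and zinc transporters). Alternatives tried were other pseudocounts, filters and scalings, no trend, a fit on the compared libraries alone, a replicate block and each library left out in turn.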

Additional observations from a re-analysis of the deposited data

Results flagged for a closer look

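In 3 genes named beside the family, the response to RA differed between the genotypes by the test of that difference (GLP 3A minus WT, limma). Prdx6, for a peroxiredoxin, had a difference of -0.82 (SE 0.099, adjusted p = 0.0245), with RA responses of -0.65 in GLP 3A and 0.17 in WT. Pdgfra, a receptor of fibroblasts and early mesoderm, had a difference of -1.36 (SE 0.2, adjusted p = 0.038): it was at 2.71 and 3.41 RPKM in GLP 3A with RA and at 10.9 and 8.65 RPKM in WT with RA. Zfp42, a stem cell marker on chromosome 8, had a difference of 2.50 (SE 0.41, adjusted p = 0.0463): untreated it was at 66.4 and 63.2 RPKM in GLP 3A and at 314 and 290 RPKM in WT. Each of the 3 kept its call in 2 of 8 fits with 1 library left out.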

How the results depend on the processing

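Of 218 tested member values under other settings, 204 kept their direction and side of the threshold. Of 118 given without a test, 115 kept their sign and moved by less than the spread between replicates. The size of that move was mostly fixed in advance and shows little. Leaving out a library cannot move a difference by more than that spread. Changing the filter, the trend, the block or the libraries fitted either leaves the difference as it was. For the genotype difference with RA, the fit on the 4 RA libraries alone gave 1.91 for Mt1, 2.39 for Mt2, 1.07 for Mt3 and 2.45 for Mt4, none called, where the construction leaves fewer libraries to estimate the spread. With 1 library left out, where a lone library is assumed to vary like the other groups, the differences with RA were 1.61 to 2.22 for Mt1, 2.00 to 2.77 for Mt2, 0.92 to 1.23 for Mt3 and 2.23 to 2.66 for Mt4. Quantile normalization gave 1.29 for Mt2 untreated and 0.04 for the difference of RA responses of Mt4, and moved the RA response of Mt1 in GLP 3A to -1.38 and of Mt2 to -1.66, both still called. The difference of RA responses changed sign with 1 library left out for Mt3 (-0.19 to 0.26) and Mt4 (-0.76 to 0.06); the cause was not tested.

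The count of genes called untreated was 1541 and became 3450 with only the 4 libraries and 206 to 2298 with 1 left out; with RA it was 1401 and became 15, and 298 to 2431 with 1 left out; for the difference of RA responses it was 238 and became 158 with a pseudocount of 0.1, 143 after quantile normalization and 11 to 1128 with 1 left out. Among named genes outside the family 205 of 2069 values lost a call, 9 gained one and 10 changed sign: quantile normalization gave 0.08 for Nudt21 (RA in WT), -0.06 for Slc31a1 untreated and 0.01 for Fkbp5 with RA, median-of-ratios scaling gave -0.03 for Slc31a1 untreated, and with 1 library left out Mtf1 with RA ran from 0.00 to 0.27, Slc31a1 from -0.07 to 0.10 untreated, from -0.24 to 0.12 with RA and from -0.01 to 0.16 for RA in WT, and Fkbp5 with RA from -0.07 to 0.06. No scaling moved the median of all genes by over 0.1.

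Libraries with the same replicate number deviated together (r of 0.169 to 0.355 over 13198 genes), but nothing in the labels says they were paired. With the replicate number as a block 1741, 1647, 9601, 9308 and 199 genes were called in the 5 comparisons, and no call of a member changed.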

Other observations

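Copper, which metallothioneins also bind, is handled by its own chaperones and transporters. Of 14 tested genes limma called 1 with RA, Commd1, a regulator of copper export (0.41 ± 0.10, limma's adjusted p = 0.0493, lost in 8 of 8 fits with 1 library left out), and 0 untreated, where 7 had an unadjusted p under 0.05 and Slc31a2 and Steap2 were called in the fit on the 4 untreated libraries alone. Between genotypes 10.6% of all tested genes were called with RA and 11.7% untreated, and 3450 of 13198 in the fit on the 4 untreated libraries. The median difference of GLP 3A from WT was 0.18 with RA and 0.25 untreated, against -0.01 and 0.04 for all genes tested. Slc31a1, the main copper importer, was not called (-0.06 with RA). With RA against untreated, 4 of the 14 rose and 5 fell in GLP 3A and 3 rose and 5 fell in WT, where of all tested genes 32.3% rose and 38.1% fell in GLP 3A and 33.7% rose and 34.8% fell in WT. Atp7a, the copper exporter, rose by 1.06 in GLP 3A and by 1.67 in WT, and Sod1, the copper and zinc superoxide dismutase, fell (-1.39 in GLP 3A, -1.08 in WT).

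Glucocorticoids also induce metallothioneins. Of 9 glucocorticoid response genes 1 was called between genotypes with RA: Zbtb16, a zinc finger repressor, was lower in GLP 3A (-1.36 ± 0.23, limma's adjusted p = 0.0235, kept in 2 of 8 fits with 1 library left out). Untreated, limma called 0, with 1 at an unadjusted p under 0.05. The fit on the 4 untreated libraries alone called 2, Sgk1 and Cdkn1c, and 3450 of all 13198 genes. Between genotypes 10.6% of all tested genes were called with RA and 11.7% untreated. Fkbp5, a chaperone partner of the glucocorticoid receptor, fell with RA (-1.92 in GLP 3A, -1.80 in WT), the kinase gene Sgk1 fell (-4.08 in GLP 3A, -4.05 in WT), and Cdkn1c, a cell cycle inhibitor gene, rose (3.16 in GLP 3A, 3.94 in WT). In each genotype 4 of the 9 rose and 4 fell; of all tested genes 32.3% rose and 38.1% fell in GLP 3A, and 33.7% rose and 34.8% fell in WT.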
